A study of Mus musculus with 6 samples.

Results

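The 49 genes described here encode proteins of the kinetochore, of the spindle assembly checkpoint and of entry into and exit from mitosis. They were chosen by symbol for these roles, with earlier results of these data known. All 49 are among the 14870 genes of the table, and all 49 passed the filter on low values (a group mean of 10 or more normalized counts). RNA was sequenced from primary lung-resident fibroblasts of TGFα mice, adult animals of both sexes in which the CCSP promoter, active in airway epithelium, drives a doxycycline-dependent activator (rtTA) and a TetO element carries TGFα. All animals had been on Dox chow for 10 days, so that TGFα was induced in both groups, and no library without TGFα belongs to the comparison. The cells were transfected for 72 h with Aurkb siRNA (3 libraries) or with control siRNA (3 libraries), both of the Stealth type. Whether libraries of the same group stem from different animals or cultures is not stated in the sources used here, and p-values cover the spread among these libraries alone, which may be technical.

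The kinetochore is the protein assembly on each centromere that holds the spindle microtubules during cell division. Its inner layer, the CENP proteins of the constitutive centromere-associated network, sits on nucleosomes with CENP-A, and its outer layer, built of the MIS12, NDC80 and SKA complexes, binds the microtubule. Kinetochores without microtubules recruit the checkpoint kinases and the MAD and BUB proteins, which hold back CDC20 and so the anaphase-promoting complex until every chromosome is attached. Aurora kinase B, the product of the targeted gene, phosphorylates NDC80 and other outer proteins to release wrong attachments and helps recruit the checkpoint. Most of these genes are transcribed mainly in G2 and mitosis, so that their transcripts are commonly used as a measure of dividing cells, and in quiescent fibroblasts they are low.

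The reads counted to genes ran from 20820596 to 27572833 in the Aurkb siRNA libraries and from 29350227 to 30441954 in the control siRNA libraries. Read counts recovered from the deposited values were divided by the authors' size factors and are called normalized counts. They were compared as log2(normalized count + 1) with limma over 13906 genes. On this scale the changes of low genes are understated. A call needed an adjusted p (Benjamini-Hochberg) no larger than 0.05 and a change no smaller than 1.5-fold. Aurkb itself had 37.4, 52.8 and 28.9 normalized counts with Aurkb siRNA, against 99.5, 108 and 134 in the control siRNA libraries. The groups did not overlap, and the log2 fold change was -1.52 (standard error 0.23, limma adjusted p = 0.000927). The fibroblast markers Col1a1 and Vim were at 244215 or more and 55047 or more normalized counts in every library. The summed level of 6 endothelial markers ran from 2377 to 2949 normalized counts with Aurkb siRNA and from 4749 to 6436 with control siRNA. With limma 5 of the 6 were called lower, and with voom, an alternative fit, 4. The shares called by limma over all genes tested were 7.67% lower and 4.64% higher. Of the other lists, Pdgfra and Dcn of 8 fibroblast markers, Sftpc of 5 epithelial ones and Cd68 and Lyz2 of the hematopoietic ones were called lower, while of 5 mesothelial markers Lrrn4 was lower and Krt19 higher. Ptprc, which marks all leukocytes, had at most 6.21 normalized counts. Adgre1, Cd3e and Scgb1a1 were not analysed here.

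Compared to control siRNA, knockdown of Aurkb left most of the 49 transcripts within the spread between libraries. Only Nuf2, a subunit of the NDC80 complex, was called lower, and Ska2, of the SKA complex, and Cenpw, of the inner kinetochore, were called higher. This makes 1 of 49 members lower, against 7.67% of all genes tested, and 2 of 49 higher, against 4.64% of all genes tested. With the adjusted p alone, 9 members were higher, against 19.5% of all genes tested, and 2 were lower, against 20.5%. The 2 lower ones were Nuf2 and Nusap1, which bundles microtubules at the spindle. These counts depended on the model. With a block for replicate number, 10 were higher and 4 lower, Mad2l1 and Cenpc1 being the added lower ones, and after leaving out 1 library 3 to 8 were higher (3 without control siRNA replicate 2) and 1 to 4 lower. The shares of all genes tested at the adjusted p alone in these fits are not given here. Calls at 1.5-fold over all genes tested also rose with the block, from 645 to 694 higher and from 1067 to 1171 lower. At an unadjusted p of 0.05, limma gave 12 members higher, against 24.1% of all genes tested, and 4 lower, against 24.9%. The median log2 fold change of the members was 0.08, that of all genes tested 0.00, and single members ran from -0.94 (Nuf2) to 0.68 (Cenpw). The 95% interval lay within 1.5-fold in both directions for 28 members and within 2-fold for 47, the exceptions being Nuf2 and Cenpw. For 18 members that were not called, the interval reached 1.5-fold, so that a change of that size was not excluded by these libraries. On the log2(RPKM + 1) scale, where the added 1 RPKM is near the level of many of these genes, 0 members were called by limma. Of the 13906 genes tested, 310 were called higher and 535 lower on that scale, fewer than the 645 and 1067 of the main fit. The changes of Nuf2 (-0.56, limma adjusted p = 0.00625) and Ska2 (0.57, limma adjusted p = 0.000271) were then under 1.5-fold. At the adjusted p alone the counts on that scale were again 9 higher and 2 lower, and at an unadjusted p of 0.05 they were 12 and 4, against 24.2% and 23.4% of all genes tested. In bulk libraries, fewer dividing cells and less RNA of these genes per cell cannot be told apart.

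**Figure D1:**
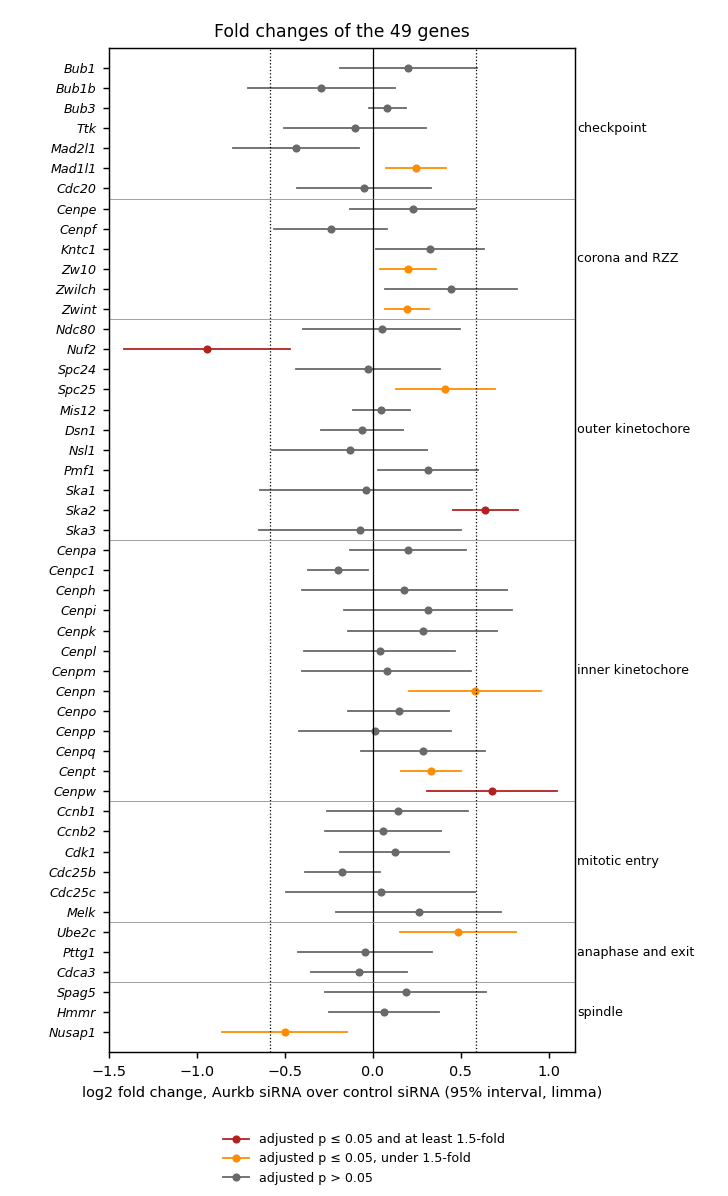
Log2 fold change of the 49 genes, Aurkb siRNA over control siRNA, grouped by role. Points are limma estimates and lines 95% intervals (n = 3 libraries each), and dotted lines mark 1.5-fold. Nuf2 lies alone at the left at -0.94, while Ska2 (0.64) and Cenpw (0.68) lie past the right dotted line.

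The levels of the members, given per length as RPKM, covered a wide range. Zwint, which links the outer kinetochore to the checkpoint, and Bub3, a checkpoint protein, stood far above the others, Zwint at a mean of 31.0 RPKM with Aurkb siRNA and 27.0 with control siRNA and Bub3 at 28.7 and 27.0. Ska1, of the SKA complex, was the lowest at 0.413 and 0.432 RPKM, and the median member had 2.22 RPKM with Aurkb siRNA and 2.21 with control siRNA. The reads behind a member ran from 20 to 4207 in the Aurkb siRNA libraries and from 26 to 4069 in the control siRNA libraries. Among all 49, the standard error of the log2 fold change was largest for Ska1, at 0.27.

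The NDC80 complex, the rod that binds the microtubule directly, consists of NDC80, NUF2, SPC24 and SPC25, and of its 4 transcripts only that of Nuf2 was called. Nuf2 (Entrez gene 66977, GRCm38 chromosome 1 from 169497934 to 169531464, minus strand) had 65.2, 98.3 and 55.2 normalized counts with Aurkb siRNA, against 134, 124 and 155 with control siRNA. These levels rest on 68, 95 and 42 reads with Aurkb siRNA and on 149, 135 and 169 reads with control siRNA. The groups did not overlap. Nuf2 fell to 53.0% of the control mean (72.9 ± 22.6 with Aurkb siRNA and 138 ± 15.5 with control siRNA, SD, n = 3 each), with a log2 fold change of -0.94 (95% interval -1.41 to -0.47, limma adjusted p = 0.00666). It was called lower after leaving out any single library. Ndc80, which carries the microtubule-binding head of the complex with Nuf2, had 101, 161 and 106 normalized counts with Aurkb siRNA and 103, 109.7 and 138 with control siRNA. The groups overlapped, and the log2 fold change was 0.05 (95% interval -0.40 to 0.49). Spc24, of the centromere-side end of the rod, had 49.9, 71.4 and 55.2 with Aurkb siRNA and 55.6, 65.4 and 57.7 with control siRNA, which also overlapped. Spc25, its partner, had 225, 299 and 235 with Aurkb siRNA and 176, 189 and 202 with control siRNA. Spc25 lay higher in each Aurkb siRNA library than in any control siRNA library, with a log2 fold change of 0.41 (limma adjusted p = 0.0273), under the 1.5-fold limit of a call. Without Aurkb siRNA replicate 2 it was 0.29 (limma adjusted p = 0.073).

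Nuf2 was also set beside its partners within each library. These ratios were chosen after the values were seen and are given as a description. An exact permutation test gave p = 0.1 for each, the lowest value it can give with 3 libraries in each group. A test of ratios picked this way can support nothing. The ratios are not per length, so only their difference between libraries can be read. Nuf2 was at 64.8%, 60.9% and 51.9% of the normalized count of Ndc80 in the Aurkb siRNA libraries, against 130%, 113% and 112% in the control siRNA libraries. Relative to Spc25 it was at 28.9%, 32.9% and 23.5% with Aurkb siRNA and at 76.0%, 65.9% and 76.5% with control siRNA. The spread among the Aurkb siRNA libraries in the first ratio was small beside the distance to the control siRNA libraries, and neither ratio overlapped between the groups. For Spc25 this was fixed beforehand, as Nuf2 was lower and Spc25 higher without overlap.

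**Figure D2:**
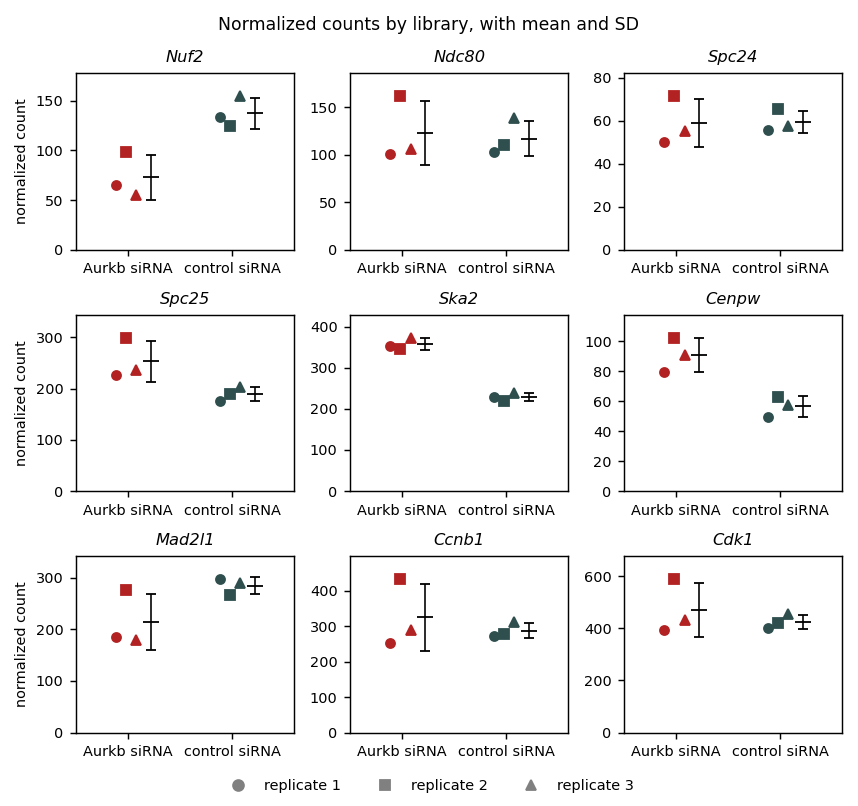
Normalized counts of 9 members by library, with the group mean and SD beside the points (n = 3 libraries each) and the replicate number given by the symbol. Nuf2, Ska2 and Cenpw do not overlap between the groups. In Ndc80, Mad2l1, Ccnb1 and Cdk1 the square of Aurkb siRNA replicate 2 stands above the other Aurkb siRNA libraries.

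Of the other outer kinetochore genes, Ska2 was called higher. SKA2 belongs to the SKA complex, which keeps kinetochores on shrinking microtubule ends. Ska2 (Entrez gene 66140, GRCm38 chromosome 11 from 87109261 to 87122974, plus strand) had 353, 346 and 373 normalized counts with Aurkb siRNA, against 229, 219 and 239.8 with control siRNA. The groups were far apart and narrow within, with a log2 fold change of 0.64 (95% interval 0.45 to 0.82, limma adjusted p = 0.000399). Of its annotated exon bases, 10.1% overlap Gm11491 on the opposite strand, and as the strand setting of the counting is not given, reads of the pair could not be separated there. The other SKA genes were not called. Ska1 had a log2 fold change of -0.04 (95% interval -0.64 to 0.56) and Ska3 one of -0.07 (95% interval -0.65 to 0.50), and both overlapped between the groups. Of the MIS12 complex, which joins the inner to the outer layer, Pmf1 had 156, 203 and 166 normalized counts with Aurkb siRNA and 133, 137 and 149 with control siRNA. These did not overlap, but the adjusted p was 0.0755 (limma, log2 fold change 0.32), and without Aurkb siRNA replicate 2 the log2 fold change was 0.20 (limma adjusted p = 0.223). Mis12, Dsn1 and Nsl1, the other subunits, had log2 fold changes from -0.13 to 0.05.

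Of the 13 inner kinetochore genes, 1 was called higher and 0 lower, against 4.64% and 7.67% of all genes tested. At the adjusted p alone, 3 were higher and 0 lower, against 19.5% and 20.5% of all genes tested. Cenpw (Entrez gene 66311, GRCm38 chromosome 10 from 30196009 to 30200603, minus strand), which pairs with CENP-T in a histone-like complex, had 79.6, 102 and 90.7 normalized counts with Aurkb siRNA, against 49.3, 62.7 and 57.7 with control siRNA. All Aurkb siRNA libraries were above all control siRNA libraries, and the log2 fold change was 0.68 (95% interval 0.31 to 1.04, limma adjusted p = 0.0102). Leaving out control siRNA replicate 1 took the change to 0.58, just under the 1.5-fold limit. Cenpt, the partner, had 332, 351 and 346 with Aurkb siRNA and 273, 276 and 268 with control siRNA, which did not overlap. Its log2 fold change was 0.33 (limma adjusted p = 0.00754). Cenpn, which reads the CENP-A nucleosome, had 83.5, 115 and 89.4 with Aurkb siRNA and 64.5, 57.1 and 68.6 with control siRNA. Its log2 fold change of 0.58 (limma adjusted p = 0.0215) lay at the 1.5-fold limit, and it passed under some of the other settings. Cenpa, the centromeric histone itself, had 157, 218 and 187 with Aurkb siRNA and 142, 164 and 182 with control siRNA. The groups overlapped, and the log2 fold change was 0.20 (95% interval -0.13 to 0.53).

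Cenpc1, which links CENP-A nucleosomes to the MIS12 complex, was the inner gene with the lowest fold change. It had 579, 639 and 544 normalized counts with Aurkb siRNA and 697, 678 and 641 with control siRNA, and the groups did not overlap by a narrow margin. The log2 fold change was -0.20 (limma adjusted p = 0.0655, or 0.0288 with the replicate block). The other 8 inner genes, Cenph, Cenpi, Cenpk, Cenpl, Cenpm, Cenpo, Cenpp and Cenpq, overlapped between the groups, with log2 fold changes from 0.01 to 0.32.

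No gene of the checkpoint was called in either direction, 0 of 7 with limma and 0 with voom. Over all genes tested, limma called 4.64% higher and 7.67% lower. With limma, 1 was higher and 1 lower at an unadjusted p of 0.05, against 24.1% and 24.9% of all genes tested. Their median log2 fold change was -0.05. Mad2l1 encodes MAD2, the protein that binds CDC20 when a kinetochore is unattached. Its transcripts had 185, 277 and 180.1 normalized counts with Aurkb siRNA, against 298, 266 and 291 with control siRNA. Replicates 1 and 3 of Aurkb siRNA were far below every control siRNA library, and replicate 2 lay within their range. The log2 fold change was -0.44 (95% interval -0.80 to -0.08, limma adjusted p = 0.0541), and without Aurkb siRNA replicate 2 it was -0.64 (limma adjusted p = 0.00176). Leaving out any of the other 5 libraries gave -0.49 to -0.33, with limma adjusted p from 0.0848 to 0.175. With the replicate number as a block, the adjusted p of Mad2l1 was 0.0253, still without a call as the change is under 1.5-fold. Mad1l1, the anchor of MAD2 at the kinetochore, differed in the other direction, with 438, 432 and 428 with Aurkb siRNA and 364, 342 and 391 with control siRNA. These groups did not overlap, and the log2 fold change was 0.25 (limma adjusted p = 0.0295). Leaving out 1 library gave limma adjusted p from 0.0285 to 0.0818 for Mad1l1.

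The checkpoint kinases were within the spread. Bub1, which phosphorylates histone H2A at centromeres, had 139, 218 and 156 normalized counts with Aurkb siRNA and 148, 129.9 and 162 with control siRNA. Bub1b, encoding BUBR1 of the inhibitory complex, had 132, 222 and 193 with Aurkb siRNA and 212, 195 and 253 with control siRNA. Ttk, encoding MPS1, the kinase that starts the signal, had 78.7, 88.0 and 65.7 with Aurkb siRNA and 69.9, 81.1 and 99.8 with control siRNA. Each of the 3 overlapped between the groups, with log2 fold changes of 0.20 for Bub1, -0.29 for Bub1b and -0.10 for Ttk. Cdc20, the activator of the anaphase-promoting complex that the checkpoint holds back, had 238, 358 and 227 with Aurkb siRNA and 261, 263 and 314 with control siRNA, with a log2 fold change of -0.05 (95% interval -0.43 to 0.33).

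The fibrous corona and the RZZ complex spread over unattached kinetochores and bring in MAD1 and dynein. Their genes were grouped with Zwint, the link of the outer kinetochore to the checkpoint, which makes 6 members. With limma and with voom 0 were called, while over all genes tested limma called 4.64% higher and 7.67% lower. With limma 4 were higher and 0 lower at an unadjusted p of 0.05, against 24.1% and 24.9% of all genes tested. Zw10, of the RZZ complex and also of vesicle transport, had 455, 437 and 427 normalized counts with Aurkb siRNA and 386, 393 and 367 with control siRNA. Zwint had 4036, 4058 and 3756 with Aurkb siRNA and 3648, 3391 and 3316 with control siRNA. Both lay higher without overlap, by log2 fold changes of 0.20 (Zw10, limma adjusted p = 0.0471) and 0.19 (Zwint, limma adjusted p = 0.0198). Leaving out 1 library gave limma adjusted p from 0.0596 to 0.141 for Zw10 and from 0.0138 to 0.0725 for Zwint.

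The remaining RZZ subunits had the same order of groups with more spread. Zwilch had 181, 278 and 196 normalized counts with Aurkb siRNA and 142, 156 and 178 with control siRNA (log2 fold change 0.44, limma adjusted p = 0.0614, or 0.0201 with the replicate block). Kntc1, encoding ROD, had 148, 199 and 166 with Aurkb siRNA and 137, 123 and 146 with control siRNA (log2 fold change 0.32, limma adjusted p = 0.0853). In both genes the lowest Aurkb siRNA library was just above the highest control siRNA library, and without Aurkb siRNA replicate 2 the log2 fold changes were 0.26 for Zwilch (limma adjusted p = 0.164) and 0.21 for Kntc1 (limma adjusted p = 0.246). Cenpe, the kinesin of the corona, had 359.8, 517 and 343 with Aurkb siRNA and 323, 313 and 394 with control siRNA, which overlapped. Cenpf, a large coiled-coil protein of the corona, had a log2 fold change of -0.24 (95% interval -0.56 to 0.08).

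Mitotic entry is driven by CDK1 with cyclin B, which CDC25 phosphatases activate, and 0 of the 6 members of this group were called with limma or voom. Over all genes tested, limma called 4.64% higher and 7.67% lower, so 0 calls among 6 genes lies near these shares. No member of the group reached an unadjusted p of 0.05 with limma, against 24.1% higher and 24.9% lower of all genes tested. Cdk1 had 392, 589 and 431 normalized counts with Aurkb siRNA and 402, 422 and 455 with control siRNA. Ccnb1, encoding cyclin B1, had 251, 433 and 290.5 with Aurkb siRNA and 272, 279 and 311 with control siRNA. In both, Aurkb siRNA replicate 2 was the highest of all 6 libraries, and the others lay close together. The fold changes on the log2 scale were 0.12 for Cdk1 (95% interval -0.19 to 0.43) and 0.14 for Ccnb1 (95% interval -0.26 to 0.54), and without Aurkb siRNA replicate 2 they were -0.05 and -0.09. Cdc25b was at 191, 222 and 204 with Aurkb siRNA and at 229, 228 and 239 with control siRNA, lower without overlap but with a limma adjusted p of 0.17. Ccnb2, Cdc25c and the kinase gene Melk overlapped between the groups.

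Among the genes of anaphase, exit and spindle, Ube2c and Nusap1 reached an adjusted p of 0.05 in opposite directions, at changes under 1.5-fold. Ube2c, the ubiquitin-conjugating enzyme that starts chains for the anaphase-promoting complex, had 231, 337 and 235 normalized counts with Aurkb siRNA and 184, 185 and 197 with control siRNA. It was higher without overlap, with a log2 fold change of 0.48 (limma adjusted p = 0.0267), but 22.8% of its exon bases overlap Tnnc2 on the opposite strand. Without Aurkb siRNA replicate 2 the change of Ube2c was 0.31 (limma adjusted p = 0.0461), and leaving out any 1 control siRNA library gave limma adjusted p from 0.0585 to 0.0736. Nusap1 had 143, 220.5 and 149.8 with Aurkb siRNA and 233, 236 and 245 with control siRNA. It was lower without overlap, with a log2 fold change of -0.50 (95% interval -0.86 to -0.15, limma adjusted p = 0.0316), and without Aurkb siRNA replicate 2 it was called lower at -0.70 (limma adjusted p = 0.00128). Leaving out any of the other 5 libraries left Nusap1 above an adjusted p of 0.05, with limma values from 0.0625 to 0.106. Pttg1 (securin), Cdca3, Spag5 and Hmmr overlapped between the groups, with log2 fold changes from -0.08 to 0.19. In all, 13 members were higher with no overlap between the groups, against 26.0% of all genes tested, and 4 were lower, against 26.2%.

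**Figure D3:**
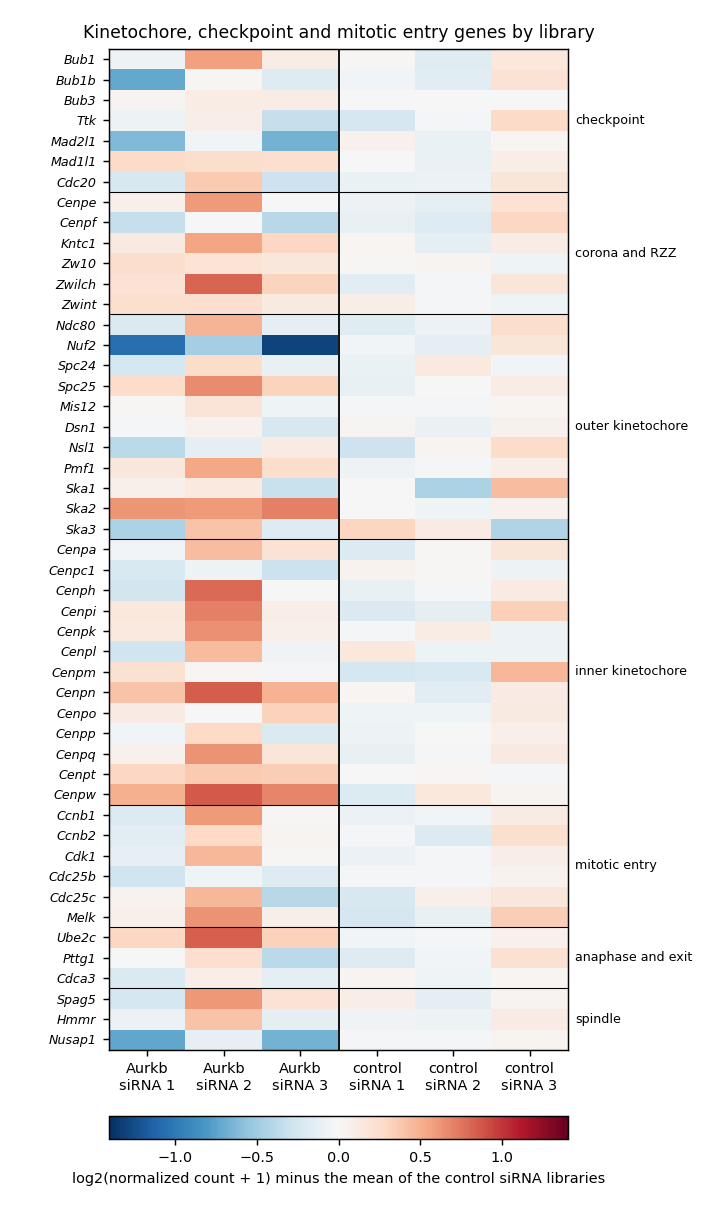
Level of the 49 genes in each library as log2(normalized count + 1) minus the mean of the control siRNA libraries, grouped by role. Blue is lower and red higher. The Nuf2 row is blue in all 3 Aurkb siRNA libraries, the Ska2 and Cenpw rows are red in all 3, and the column of Aurkb siRNA replicate 2 is redder than its neighbours.

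Many members moved together between libraries of the same group. In the Aurkb siRNA group, replicate 2 was the highest library for 42 of the 49 members (85.7%), while it was the highest for 36.4% of all genes tested. Among the control siRNA libraries, replicate 3 was the highest for 36 members (73.5%), against 32.5% of all genes tested. The median member lay 0.27 above its group mean on the log2 scale in Aurkb siRNA replicate 2, and 0.16 and 0.11 below it in replicates 1 and 3. In the control siRNA libraries 1, 2 and 3 the same medians were -0.04, -0.04 and 0.11. The median SD within a group was 0.25 on the log2 scale for the members with Aurkb siRNA and 0.12 with control siRNA, against 0.10 for all genes tested in each group. The genes compared were not matched for level, and the part of read depth in these SDs was not tested. Without Aurkb siRNA replicate 2, the members' median log2 fold change was -0.05 with 22 of 49 above 0, while with all libraries 33 of 49 were above 0.

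Markers of other cells differed between the same libraries. The summed level of 5 mesothelial markers was 23239.9, 11990.4 and 17337 normalized counts in Aurkb siRNA replicates 1, 2 and 3, and 26449.9, 20811 and 21299.6 in control siRNA replicates 1, 2 and 3. Aurkb siRNA replicate 2 was thus the lowest library for these markers and the highest for most of the members. The endothelial sum was also lowest there within its group, at 2377 normalized counts against 2949 and 2619 in Aurkb siRNA replicates 1 and 3. In control siRNA replicates 1, 2 and 3 it was 6196, 4749 and 6436, so that it was highest in replicate 3, which was also the highest control siRNA library for most of the members. The part of other cells in the members' levels was not tested.

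**Figure D4:**
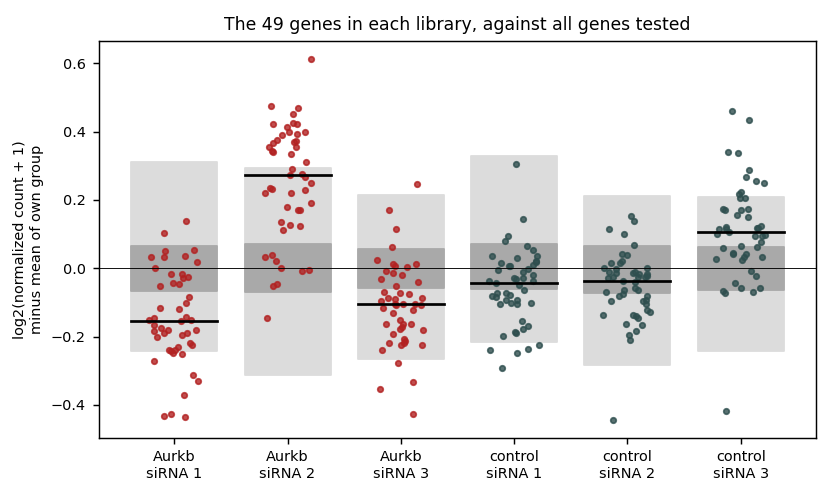
Deviation of each of the 49 genes (points) in each library from the mean of its own group, as log2(normalized count + 1). Black lines are the members' medians, and the dark and pale bands hold the middle 50% and 90% of all genes tested. The points of Aurkb siRNA replicate 2 are centred at 0.27, above the bands' middle, and those of control siRNA replicate 3 at 0.11.

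Because the transcripts shared this movement, members were also set beside Cdk1 of the same library, again as a description chosen after the values were seen. Mad2l1 was at 47.2%, 47.1% and 41.8% of the normalized count of Cdk1 in the Aurkb siRNA libraries, against 74.1%, 63.1% and 64.0% in the control siRNA libraries. Nusap1 was at 36.4%, 37.4% and 34.8% with Aurkb siRNA and at 58.0%, 55.9% and 53.9% with control siRNA. Neither ratio overlapped between the groups, although the normalized count of Mad2l1 itself did. For Mad2l1 this depended on the gene set beside it. Relative to Bub1b it was at 139.9%, 125% and 93.2% with Aurkb siRNA and at 140.1%, 136% and 115% with control siRNA, which overlapped. Ccnb1 was at 64.1%, 73.5% and 67.4% of Cdk1 with Aurkb siRNA and at 67.6%, 66.2% and 68.4% with control siRNA, which overlapped. Aurkb was at 9.54%, 8.96% and 6.71% of Cdk1 with Aurkb siRNA and at 24.8%, 25.5% and 29.4% with control siRNA.

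Genes transcribed in G2 and mitosis commonly carry a CHR element (cell cycle genes homology region), which the DREAM and MYB-MuvB complexes bind, and CCAAT boxes, which bind NF-Y. Promoters of 44 members, from 250 bases before to 50 after the start, were matched in RefSeq on GRCm38.p6, and Zwilch, Spc24, Nsl1, Ska1 and Cdc25c were not searched. The letters TTTGAA or TTCGAA on either strand were taken as the CHR word, and CCAAT on either strand as the CCAAT word. The CHR word was found in 54.5% of the member promoters and in 13.5% of those of all genes tested, and both words in 47.7% and 5.71%. A match is only a description of letters in this window. The 21 members with both words had a median log2 fold change of 0.08 (range -0.29 to 0.68), and the 23 others had 0.15 (range -0.94 to 0.64), so that their ranges overlapped. The promoters of Cdk1 and Cdc20, textbook cell cycle genes that were not called, and of the 3 called genes are shown from 100 bases before to 50 after the start, with the words in capitals.
Cdk1, chr10:69352863-69353012, minus strand: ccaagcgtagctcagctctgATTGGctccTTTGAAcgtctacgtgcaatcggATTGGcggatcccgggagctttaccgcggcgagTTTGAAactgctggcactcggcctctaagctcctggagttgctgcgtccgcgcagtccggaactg
Cdc20, chr4:118437294-118437443, minus strand: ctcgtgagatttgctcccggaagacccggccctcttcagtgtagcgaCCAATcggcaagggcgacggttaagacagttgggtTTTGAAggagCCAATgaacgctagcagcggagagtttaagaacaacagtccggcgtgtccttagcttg
Ska2, chr11:87109161-87109310, plus strand: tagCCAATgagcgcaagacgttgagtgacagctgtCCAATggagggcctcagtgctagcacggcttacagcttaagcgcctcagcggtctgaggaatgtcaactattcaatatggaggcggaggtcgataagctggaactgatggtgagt
Cenpw, chr10:30200491-30200640, minus strand: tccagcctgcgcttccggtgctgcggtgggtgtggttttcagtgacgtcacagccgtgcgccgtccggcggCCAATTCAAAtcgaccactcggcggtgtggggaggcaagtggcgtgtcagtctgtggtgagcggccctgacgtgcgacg
Nuf2, chr1:169531415-169531564, minus strand: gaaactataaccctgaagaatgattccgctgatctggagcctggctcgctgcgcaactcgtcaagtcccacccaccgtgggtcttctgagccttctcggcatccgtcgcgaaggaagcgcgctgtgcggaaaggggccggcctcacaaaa
Cdk1 and Cdc20 have both words near the start. Ska2 has CCAAT words and no CHR word, and in Cenpw the words overlap, the CHR word being on the opposite strand. Nuf2 has neither word in the window, which says only that these letters are absent from it.

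The word AACGTGTA occurs in the coding part of the Aurkb mRNA and also in the 3′ UTR of Nuf2 and Mad2l1. It was known from an earlier look at these same libraries, where it was picked among the lower genes, so its presence in lower members supports nothing. The sequence of the siRNA is not given in the sources used here, and a part of the word in any result was not tested. Of the 49 members, 2 (4.08%) held the word in an annotated 3′ UTR (GENCODE M21), against 1.01% of 12813 genes tested with a 3′ UTR. Either of its shorter words, AACGTGT or ACGTGTA, was in 3 members (6.12%), against 6.84% of the same genes, the third being Bub3 at a log2 fold change of 0.08. The sites are shown 5′ to 3′ on the mRNA strand with the word in capitals, as they give the exact letters that these 3 transcripts share.
Nuf2, chr1:169498377-169498406, minus strand, 3′ UTR: acaattcaaatAACGTGTAcagcttttatg
Mad2l1, chr6:66540783-66540812, plus strand, 3′ UTR: gctcccttaatAACGTGTAgcactcttgct
Aurkb, chr11:69048224-69048253, plus strand, coding: gcaaatttggaAACGTGTActtggctcggg
The Nuf2 and Mad2l1 log2 fold changes were -0.94 and -0.44, as given above, and that of Aurkb -1.52.

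Related genes outside the 49 were read for context from lists with counts only. The shares called over all genes tested were 4.64% higher and 7.67% lower. Of 18 further kinetochore genes tested, 0 were called with limma and 0 with voom, with a median log2 fold change of 0.14. At an unadjusted p of 0.05, limma gave 2 higher and 0 lower, against 24.1% and 24.9% of all genes tested. Of 17 genes of the anaphase-promoting complex and its regulators, only Ube2s, which extends the chains that UBE2C begins, was called higher, with 2349, 2376 and 2324 normalized counts in the Aurkb siRNA libraries, against 1468, 1541 and 1469 in the control siRNA libraries. Its log2 fold change was 0.65 (limma adjusted p = 2.51e-05), and the groups were far apart. Of the 5 chromosomal passenger genes tested, Aurkb alone was called. Among 16 further genes of entry and exit control, 2 were called higher and 0 lower, against 4.64% and 7.67% of all genes tested. Cdc25a, the phosphatase of the G1/S and G2/M steps, had 567, 549 and 488 normalized counts with Aurkb siRNA and 335, 318 and 331 with control siRNA (log2 fold change 0.70, limma adjusted p = 0.000216). Gtse1, a microtubule-bound regulator of p53, had 567, 595 and 436 with Aurkb siRNA and 336, 335 and 307 with control siRNA (log2 fold change 0.69, limma adjusted p = 0.00161). Neither gene overlapped between the groups. Plk1, the polo kinase that the kinetochore recruits, had 159, 296 and 177 normalized counts with Aurkb siRNA and 185, 173 and 221 with control siRNA, with replicate 2 again the highest. Its log2 fold change was 0.08 (95% interval -0.40 to 0.56).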

How the data were processed

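Per the submitters' processing notes, bcl2fastq, CASAVA 1.8, TopHat and DESeq were used with mm10. How reads were counted, with which strand setting and annotation, is not given in the sources used here. RPKM values for each library were deposited by the authors as reads scaled by gene length and library total. The signal columns deposited beside them hold means of size-factor-scaled reads. The deposited fold ratio, log2 and p-value columns hold the authors' own comparison and were not used. Whole reads were recovered from RPKM and group means. Of the values, 100% were whole within 0.001, and the reads were divided by the authors' size factors to give normalized counts.

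Normalized counts were compared as log2(value + 1) with limma 3.58.1 (trend on, R 4.3.3) without a block, for genes averaging 10 or more in a group, with Benjamini-Hochberg adjustment over all genes tested. The fit was tested on simulated data. Given per library were members called, at an unadjusted p of 0.05 or less or 2-fold apart, the best-known of each role, and of related lists Aurkb, Plk1, Mki67 and called genes. The members and lists were chosen with earlier results of these data known. Spc24, Bub3, Cdc25b and the ratios were added after the values were seen.

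Pairing by replicate number was checked through the correlation of deviations from group means across genes. Same-numbered libraries gave 0.395, 0.173 and 0.214, other pairs -0.243 to 0.049, so a fit with the number as a block was run as an alternative beside voom, other scalings, filters and pseudocounts, and leaving out each library. Promoters are from RefSeq on GRCm38.p6 and transcripts from GENCODE M21.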

Additional observations from a re-analysis of the deposited data

How the results depend on the processing

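Nuf2 stayed lower and Ska2 higher, each at an adjusted p under 0.05, in every alternative run. Both missed the call on size on the log2(RPKM + 1) scale (-0.56 and 0.57), where 0 members were called lower and 0 higher, and at a 2-fold minimum (-0.94 and 0.64), with 0 and 0. Calls over all 13906 genes tested also became fewer. They went from 1067 lower and 645 higher to 535 and 310 on that scale, and to 380 and 224 at the 2-fold minimum. With the adjusted p alone, 2 members were lower and 9 higher, against 20.5% and 19.5% of all genes tested. With the replicate block they were 4 and 10, and leaving out 1 library 1 to 4 and 3 to 8. The shares of all genes tested at the adjusted p alone in these other fits are not given here. Leaving out 1 library, members called lower numbered 1 to 3 and higher 2 to 3, while over all genes tested 897 to 1114 were called lower and 575 to 633 higher. The median log2 change of the members then ran from -0.05 to 0.175, and that of Aurkb from -1.75 to -1.32. The 3 lower members appear without Aurkb siRNA replicate 2 (Nuf2, Mad2l1 and Nusap1). Leaving out 1 library turned the direction of 19 members, none of them at an adjusted p of 0.05, and 11 of these turned to below 0 without Aurkb siRNA replicate 2. Among those given per library were Ttk (-0.22 to 0.030), Cdc20 (-0.26 to 0.070), Ndc80 (-0.16 to 0.175), Ccnb1 (-0.086 to 0.30) and Cdk1 (-0.049 to 0.24). Quantile normalization turned Ska1 and Spc24. The cause was not tested. With the replicate block, 1 member was called lower and 2 higher, as without it, and it changed no call at 1.5-fold among the members. Over all genes tested, 1171 were called lower and 694 higher with the block. Cenpn was called higher with voom, upper quartile scaling and quantile normalization. Depth limits the low genes, with 20 reads for the least covered member and library.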

Other observations

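Among 16 genes of the DREAM and FOXM1 list, the complexes that regulate many mitotic genes, 1 was called higher and 2 lower. Over all genes tested, 4.64% were called higher and 7.67% lower. Rbl2, encoding p130, the pocket protein that keeps DREAM targets silent in resting cells, had 904, 946 and 909.5 normalized counts with Aurkb siRNA, against 1829, 1843 and 1848 with control siRNA, called lower at group means of 919.8 ± 23.0 and 1839.8 ± 9.83 (SD, n = 3 each, limma adjusted p = 6.43e-06). Tfdp1, the dimer partner of the E2F factors, had 957, 1071 and 1000.2 with Aurkb siRNA and 1713, 1780.3 and 1812 with control siRNA (log2 fold change -0.81, limma adjusted p = 2.6e-05). E2f5, a repressor E2F of this complex, was higher at 315, 307 and 329 with Aurkb siRNA, against 167, 206 and 207 with control siRNA (log2 fold change 0.72, limma adjusted p = 0.000878). None of these groups overlapped. The other 13 genes of the list were not called.

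Of 16 genes of S phase and proliferation, Cdt1, which licenses replication origins, was called higher at 317, 276 and 292 normalized counts with Aurkb siRNA, against 188, 189 and 211 with control siRNA (log2 fold change 0.59, limma adjusted p = 0.00145). In all, 7 of the 16 were higher and 1 lower at an adjusted p of 0.05 or less, most of them under 1.5-fold, against 19.5% higher and 20.5% lower of all genes tested, and 9 higher and 2 lower of the 49 kinetochore and mitotic genes. Mki67, the proliferation antigen, had 479.7, 784 and 563 with Aurkb siRNA and 706, 606 and 880.4 with control siRNA, which overlapped (log2 fold change -0.28, limma adjusted p = 0.255). Replicate 2 of Aurkb siRNA was again the highest of its group.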
